A study of Bos taurus with 4 samples.

Results

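The 10 genes described here encode carriers that take peptides and amino acids across the intestinal epithelium or across lysosomal membranes. They were chosen by symbol, from their known function, but with earlier results of these data known. The genes are SLC15A1, SLC6A19, SLC6A20, SLC7A9, SLC3A1, SLC7A7, SLC7A8, SLC3A2, SLC1A1 and SLC36A1. Each has 1 row among the 29792 rows of the count files, and all 10 had reads in all 4 libraries. The samples came from Hanwoo cattle over 24 months old, with 1 library each of small intestine, of muscle, and of intestinal organoids at passage 5 (P5) and passage 10 (P10). Organoids were grown in Matrigel and IntestiCult medium from crypts of the jejunum. The labels give no number of animals and no segment for the tissue library, and they do not say whether the P5 and P10 organoids came from the same culture. With 1 library per group, differences between libraries could not be set against the spread of replicates, and no test was made. RNA was measured by QuantSeq, which sequences the 3′ ends of polyadenylated transcripts, and 12917720 to 17776273 reads were counted per library.

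Dietary protein reaches the enterocyte as short peptides and free amino acids, and carriers of the apical (lumen-facing) and basolateral (blood-facing) membranes pass them on. The apical side uses a proton-coupled peptide carrier and sodium-coupled amino acid carriers. Several other carriers are heterodimers, in which a light chain of the SLC7 family moves the amino acids and a heavy chain of the SLC3 family brings it to the membrane. An apical light chain needs SLC3A1, and basolateral light chains need SLC3A2.

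Levels are given as CPM, a count divided by the total of its library and scaled alike in all 4, with exact 95% Poisson intervals. Differences are on the log2 scale after quantile normalisation, the method the study names, with 1 added to each normalised value, and the interval in brackets carries the Poisson limits of both counts through the normalisation. Intervals cover counting error only, not the spread of animals or libraries. They treat reads as independent, which reads copied by PCR without molecular identifiers are not, so they may be too narrow even for counting error. A difference is called past 2-fold when it is 1 or more on the log2 scale and the higher of the 2 libraries has 50 reads or more, the read minimum used throughout. Added over the 10 genes, the level was 2348 CPM at P5 and 206 CPM at P10, beside 393 CPM for intestine and 68.4 CPM for muscle. SLC6A19 held 59.3% of these reads in P5 organoids and 0.229% in intestine, while SLC15A1 held 45.9% in intestine and 14.5% in P5 organoids.

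**Figure D1:**
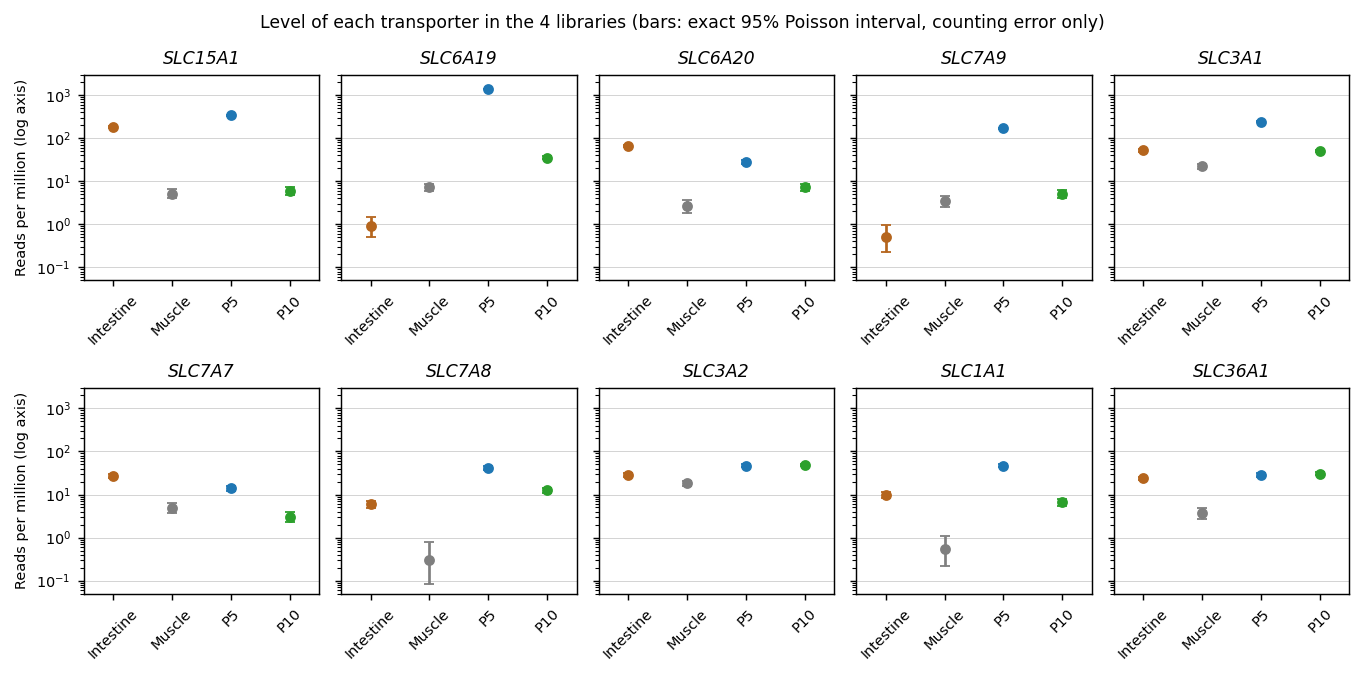
Level of each transporter in intestine, muscle, P5 organoids and P10 organoids, in CPM on a log axis, with exact 95% Poisson intervals. P5 organoids held the highest level of 6 genes, intestine that of SLC6A20 and SLC7A7, and P10 organoids that of SLC3A2 and SLC36A1, whose P5 and P10 intervals overlap.

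The tissue labels were checked against marker genes of cell types. The 10 epithelial markers summed to 1880 CPM in intestine, 10263 CPM in P5 organoids, 9671 CPM in P10 organoids and 21.4 CPM in muscle, where 6 of the 10 (KRT18, CLDN7, ELF3, CDX1, CDX2 and VIL1) were at 0. The 8 skeletal muscle markers summed to 39183 CPM in muscle and to 3.38 CPM or less elsewhere. The 7 stromal markers summed to 1180 CPM in intestine and to 4.49 CPM or less in organoids, and the 7 leukocyte markers to 328 CPM and to 5.58 CPM or less. The 12 enterocyte markers, which label absorptive cells, summed to 34120 CPM in intestine, 4859 CPM at P5 and 302 CPM at P10, with ALPI at 0 in both organoid libraries and APOA1, APOA4 and MEP1A also at 0 at P10. MEP1A had no read in intestine either, and ALPI had 17 there, under the read minimum. FABP1, a fatty acid binding protein, had 341994 of the 606523 enterocyte marker reads of intestine. Of 10 enterocyte markers past the read minimum, 7 were at least 2-fold lower at P5 than in intestine and 2 higher, ANPEP and SI. A lower level can stand for fewer cells of a type or for less RNA per cell, which these bulk libraries cannot tell apart.

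Compared with intestine, P5 organoids held 5 of the 10 transporters at least 2-fold higher (SLC6A19, SLC7A9, SLC7A8, SLC1A1 and SLC3A1), 2 at least 2-fold lower (SLC6A20 and SLC7A7), and SLC15A1, SLC3A2 and SLC36A1 within 2-fold. Over all 14060 rows that passed the read minimum, 40.5% were past 2-fold, 20.2% higher and 20.2% lower. The median difference of the 10 genes was 1.38, and that of these 14060 rows 0.07. At P10 the call was higher for 3 transporters (SLC6A19, SLC7A9 and SLC7A8) and lower for 3 (SLC15A1, SLC6A20 and SLC7A7) when compared with intestine. Of all 14365 rows 49.1% were called, 25.5% higher and 23.6% lower. Here the median of the 10 genes was -0.11.

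The 10 epithelial markers were themselves higher in organoids, by a median over all 10 of 2.66 at P5 and 2.58 at P10. At P5, 9 of 10 were past 2-fold. At P10, 6 of the 9 above the read minimum were past 2-fold, and the median of these 9 was 2.15. The stromal and leukocyte markers were lower as given above. Set against the epithelial median, an alternative chosen after seeing the data, 2 transporters stayed past 2-fold on the higher side at P5 (SLC6A19 and SLC7A9) and 5 fell on the lower side (SLC15A1, SLC6A20, SLC7A7, SLC3A2 and SLC36A1). At P10 the same alternative, with 2.58 taken off, left SLC6A19 and SLC7A9 higher and put the other 8 lower. With 2.15 taken off instead, SLC7A8 (1.26 before) would lie within 2-fold. Under the alternative as run, SLC15A1, SLC3A1, SLC3A2, SLC1A1 and SLC36A1 changed direction at P5, and SLC7A8, SLC3A2 and SLC36A1 at P10. This centring moves most rows down. Of all 14060 rows at P5, 300 were then called higher and 12552 lower, and of all 14365 at P10, 489 higher and 12080 lower. The members called lower are thus to be read beside a large share of all rows. Of the called rows, 2.33% at P5 and 3.89% at P10 were then higher. Quantile normalisation had 2847 higher and 2845 lower rows at P5 and 52.0% higher at P10.

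From P5 to P10, 8 of the 10 transporters fell by at least 2-fold and none rose, with SLC3A2 and SLC36A1 within counting error. Of all 12735 rows that passed the read minimum, 24.8% were called, 12.2% lower and 12.6% higher. The median difference of P10 and P5 organoids over the 10 genes was -2.16, and that of these 12735 rows was 0.09. The 8 stayed at least 2-fold lower with library totals, edgeR's TMM and upper-quartile scaling, and relative to the epithelial markers, a centring that raised the higher share of all called rows from 50.9% to 82.2%. Of the 9 enterocyte markers past the read minimum, 9 were also called lower at P10, with a median of -5.43, and the part of this in the result was not tested. This comparison and the one with intestine share the P5 library, so the falls at P10 and the excess at P5 are not separate measurements.

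**Figure D2:**
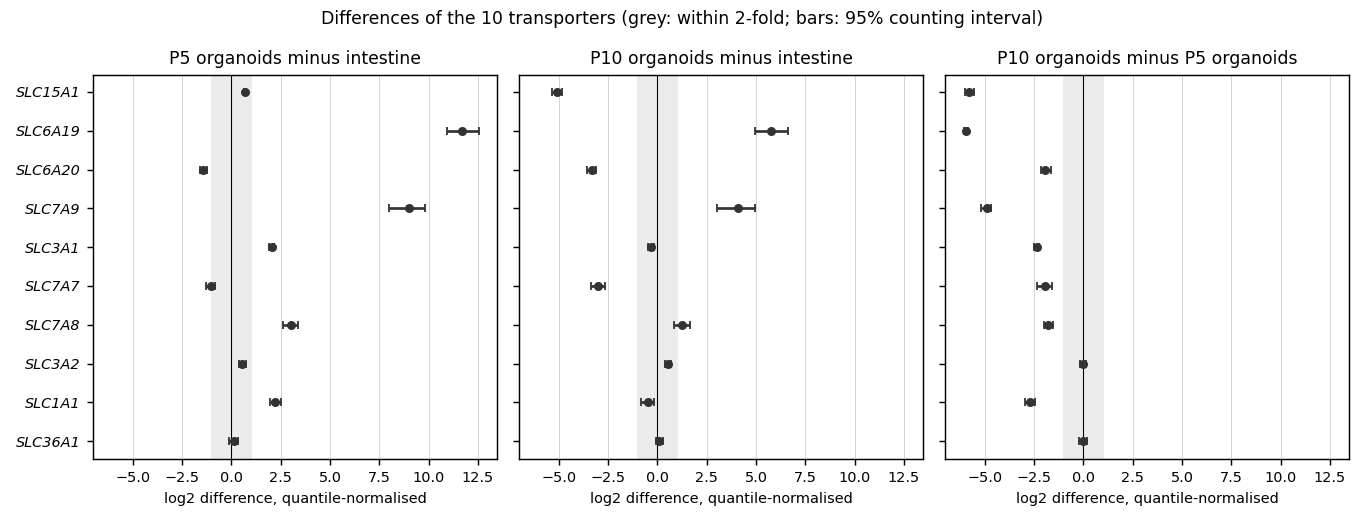
Differences of the 10 transporters on the log2 scale after quantile normalisation, for P5 organoids minus intestine, P10 organoids minus intestine and P10 minus P5 organoids, with 95% counting intervals and a grey band within 2-fold. In the right panel 8 genes lie left of the band and SLC3A2 and SLC36A1 lie on 0.

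SLC15A1 encodes PEPT1, the proton-coupled carrier of di- and tripeptides in the apical membrane. It was measured at 181 CPM (174 to 187) in intestine, 341 CPM (331 to 350) in P5 organoids, 5.98 CPM (4.89 to 7.23) in P10 organoids and 5.19 CPM (4.02 to 6.59) in muscle. P5 organoids and intestine were thus the high libraries, and the intervals of P10 organoids and muscle overlapped. The log2 difference from intestine was 0.70 (0.63 to 0.77) at P5 and -5.08 (-5.31 to -4.85) at P10. Under quantile normalisation P10 organoids were below muscle by a log2 difference of -1.13 (-1.51 to -0.71), but with library totals this difference was 0.20, so its direction depended on the scaling.

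SLC6A19 encodes B0AT1, the main sodium-coupled carrier of neutral amino acids of the brush border. It had 18937 reads at P5, 628 at P10, 16 in intestine and 93 in muscle. In the same order these are levels of 1392 CPM (1373 to 1412), 35.4 CPM (32.7 to 38.3), 0.900 CPM (0.514 to 1.46) and 7.20 CPM (5.81 to 8.82), and no pair of intervals overlapped. The difference from intestine was 11.70 (10.91 to 12.55) in P5 organoids and 5.75 (4.95 to 6.61) in P10 organoids, and P10 lay below P5 by a log2 difference of -5.95 (-6.06 to -5.83). The intestine library was the lowest of the 4, below muscle by -4.95 (-5.84 to -4.11). Over the other scalings and filters the difference of P5 organoids and intestine lay between 10.31 and 11.94, and relative to the epithelial markers it was 9.03.

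SLC6A20 encodes SIT1, the apical carrier of proline and other imino acids. In contrast to SLC6A19, it was highest in intestine, at 64.4 CPM (60.7 to 68.3), followed by 27.9 CPM (25.2 to 30.9) in P5 organoids, 7.22 CPM (6.02 to 8.58) in P10 organoids and 2.63 CPM (1.82 to 3.68) in muscle. All 4 intervals were apart. The log2 difference from intestine was -1.42 (-1.58 to -1.25) at P5 and -3.33 (-3.55 to -3.11) at P10. Within a library, SLC6A19 had 0.0140 reads per read of SLC6A20 in intestine (0.00796 to 0.0228), 49.8 in P5 organoids (45.02 to 55.3), 4.91 in P10 organoids (4.05 to 5.98) and 2.74 in muscle (1.83 to 4.18). Reads were not divided by transcript length for such ratios, since the library reads only transcript ends, and a ratio is compared here between libraries and not with 1.

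Collectrin, encoded by CLTRN, carries SLC6A19 to the cell surface in the kidney. CLTRN was lower in both organoid libraries than in intestine, with 728 reads in intestine, 109 at P5 and 142 at P10. Its log2 difference from intestine was -2.43 (-2.71 to -2.16) at P5 and -2.52 (-2.75 to -2.29) at P10, opposite in direction to that of SLC6A19.

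SLC7A9 (the light chain b0,+AT) and SLC3A1 (its heavy chain rBAT) form the apical exchanger of cystine and dibasic amino acids. SLC7A9 had 2297 reads at P5, 91 at P10, 9 in intestine and 45 in muscle, or 169 CPM (162 to 176), 5.13 CPM (4.13 to 6.30), 0.506 CPM (0.232 to 0.961) and 3.48 CPM (2.54 to 4.66). P5 organoids were the highest library and intestine the lowest, as for SLC6A19. The CPM intervals of muscle and P10 organoids overlapped, and after quantile normalisation P10 organoids lay below muscle, at -0.74 (-1.22 to -0.21), a difference that turned to 0.55 with library totals. The log2 difference from intestine was 8.99 (7.98 to 9.82) at P5 and 4.09 (3.05 to 4.95) at P10.

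SLC3A1 had 52.0 CPM (48.7 to 55.4) in intestine, 22.1 CPM (19.6 to 24.9) in muscle, 241 CPM (233 to 250) in P5 organoids and 50.8 CPM (47.6 to 54.2) in P10 organoids. P5 organoids stood above the others by 2.06 (1.93 to 2.17) on the log2 scale against intestine, and the CPM intervals of intestine and P10 organoids overlapped. Light and heavy chain therefore did not move in proportion. SLC7A9 had 0.00974 reads per SLC3A1 read in intestine (0.00444 to 0.0186), 0.700 in P5 organoids (0.664 to 0.739), 0.101 in P10 organoids (0.0805 to 0.125) and 0.157 in muscle (0.112 to 0.216). The intestine ratio lay below that of every other library, and the ratio of P5 organoids above.

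In the RefSeq gene table of assembly ARS-UCD2.0, SLC7A9 overlaps TDRD12, SLC3A1 overlaps PREPL, SLC1A1 overlaps SPATA6L, and SLC36A1 overlaps FAT2. TDRD12 had 1260 reads at P5, 47 at P10, 20 in intestine and 24 in muscle, so it too was high only at P5. The counting is not stated to use strand, so reads of overlapping genes cannot be told apart here. In the order P5, P10, intestine and muscle, PREPL had 5375, 2120, 2424 and 2223 reads. SPATA6L, with 4930, 2090, 4048 and 3189 reads, was high in all 4, and FAT2, with 59, 181, 21 and 7, was low.

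**Figure D3:**
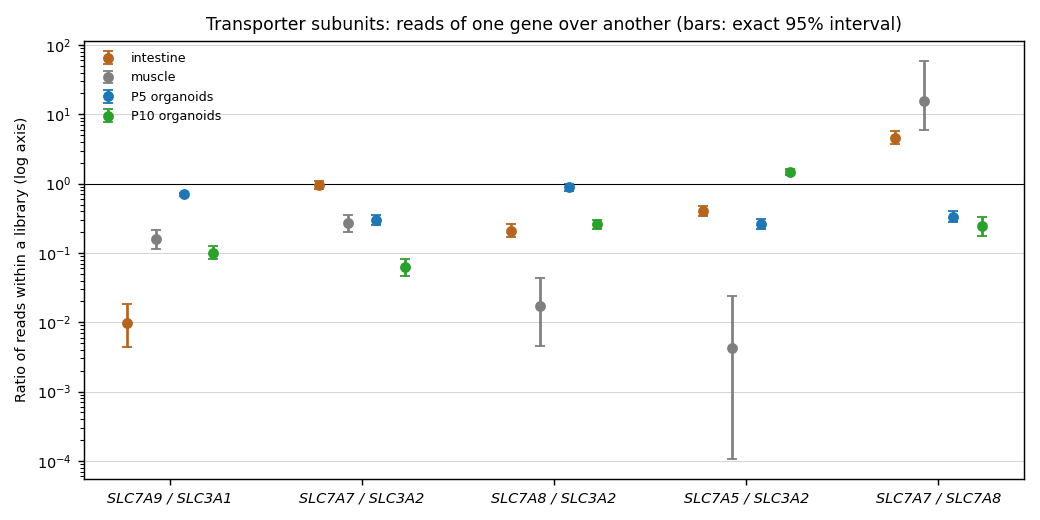
Reads of a light chain per read of its heavy chain, and of SLC7A7 per read of SLC7A8, within each library, on a log axis with exact 95% intervals. SLC7A9 per SLC3A1 is lowest in intestine, and SLC7A7 per SLC7A8 is higher in intestine and muscle than in both organoid libraries.

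The basolateral light chains SLC7A7 (y+LAT1, an exchanger of dibasic and neutral amino acids) and SLC7A8 (LAT2, an exchanger of neutral amino acids) went in opposite directions between intestine and P5 organoids. SLC7A7 had 26.9 CPM (24.5 to 29.4) in intestine, 13.9 CPM (12.0 to 16.0) in P5 organoids, 3.05 CPM (2.29 to 3.97) in P10 organoids and 4.88 CPM (3.75 to 6.24) in muscle. SLC7A8 had 5.91 CPM (4.83 to 7.15) in intestine, 41.4 CPM (38.0 to 44.96) in P5 organoids, 12.6 CPM (11.0 to 14.4) in P10 organoids and 0.310 CPM (0.0844 to 0.793) in muscle, where it had 4 reads. Intestine was thus the highest library for SLC7A7 and the lowest of the 3 intestinal libraries for SLC7A8. The log2 difference between P5 organoids and intestine was -1.05 (-1.29 to -0.81) for SLC7A7 and 3.02 (2.64 to 3.40) for SLC7A8, and that of SLC7A7 was -0.95 with library totals, within 2-fold. At P10, SLC7A7 was at -3.00 (-3.35 to -2.67) and SLC7A8 at 1.26 (0.86 to 1.65) against intestine, and the latter was 0.84 with TMM scaling and 0.83 with upper-quartile scaling, within 2-fold.

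SLC7A7 had 4.55 reads per SLC7A8 read in intestine (3.68 to 5.68), 0.336 in P5 organoids (0.283 to 0.397), 0.241 in P10 organoids (0.176 to 0.326) and 15.8 in muscle (5.86 to 59.6). The ratios of the P5 and P10 organoids overlapped, and both lay apart from intestine. A ratio within a library does not depend on the scaling. SLC7A7 is also known from macrophages, and the 7 leukocyte markers were at 328 CPM in intestine against 5.29 CPM in P5 and 5.58 CPM in P10 organoids, with CD3D and CSF1R at 0 in both. Their part in the SLC7A7 level was not tested.

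SLC3A2 (CD98hc) is the heavy chain of the basolateral exchangers and of light chains in most dividing cells. Under quantile normalisation it stayed within 2-fold over the 3 intestinal libraries, as did SLC36A1. SLC3A2 was still above intestine, by 0.55 (0.37 to 0.73) on the log2 scale at P5 and 0.54 (0.36 to 0.70) at P10. It had 28.4 CPM (25.9 to 30.9) in intestine, 18.3 CPM (16.0 to 20.8) in muscle, 46.9 CPM (43.3 to 50.7) in P5 organoids and 48.8 CPM (45.6 to 52.2) in P10 organoids. The log2 difference between P10 and P5 was -0.01 (-0.17 to 0.13), an interval that lies within 2-fold. The 2 light chains together had 1.16 reads per SLC3A2 read in intestine (1.02 to 1.31), 1.18 in P5 organoids (1.06 to 1.31), 0.321 in P10 organoids (0.279 to 0.368) and 0.284 in muscle (0.213 to 0.374). Other light chains of SLC3A2, such as SLC7A5 below, are not in this sum. Nor is SLC7A6 of the same family, with 610 reads in intestine, 353 at P5 and 473 at P10. For SLC7A7 and SLC7A8 alone, the sum relative to the heavy chain was alike in intestine and P5 organoids while its makeup differed. That sum was lower at P10.

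SLC7A5 (LAT1), another light chain of SLC3A2 that imports large neutral amino acids into growing cells, took the opposite course. It had 1271 reads at P10 against 204 in intestine, 168 at P5 and 1 in muscle. In the order intestine, P5, P10 and muscle, its reads per SLC3A2 read were 0.405 (0.342 to 0.477), 0.263 (0.221 to 0.313), 1.47 (1.35 to 1.60) and 0.00424 (0.000107 to 0.0238). P10 organoids thus had the highest SLC7A5 share while holding the lowest ratio for SLC7A7. The 8 crypt and proliferation markers summed to 150 CPM in intestine, 988 CPM in P5 organoids and 2654 CPM in P10 organoids, and their part in the SLC7A5 level was not tested.

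SLC1A1 encodes EAAT3, the apical carrier of glutamate and aspartate. It had 9.84 CPM (8.44 to 11.4) in intestine, 46.2 CPM (42.6 to 49.9) in P5 organoids, 6.66 CPM (5.51 to 7.97) in P10 organoids and 0.542 CPM (0.218 to 1.12) in muscle. P5 organoids lay above intestine by 2.22 (1.96 to 2.52) on the log2 scale and P10 organoids below it by -0.49 (-0.81 to -0.14). SLC36A1 encodes PAT1, a proton-coupled carrier of small amino acids in the brush border and in lysosomes. Its levels were 23.8 CPM (21.6 to 26.2) in intestine, 28.4 CPM (25.6 to 31.4) in P5 organoids, 30.3 CPM (27.8 to 33.0) in P10 organoids and 3.72 CPM (2.74 to 4.93) in muscle. The P10 and P5 intervals overlapped, and their log2 difference was -0.02 (-0.20 to 0.18).

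Against muscle, quantile normalisation placed 6 of the 9 transporters past the read minimum at least 2-fold higher in intestine and 1 lower (SLC6A19), where 54.6% of all rows were called, 30.6% higher and 24% lower. SLC7A9, with 9 reads in intestine and 45 in muscle, was under the minimum. At P5, 8 of 10 were called higher than muscle and 0 lower, against 55.7% of all rows, 31.6% higher and 24.2% lower, and the 2 within 2-fold were SLC7A7 and SLC3A2. In P10 organoids 3 were higher (SLC7A8, SLC1A1 and SLC36A1) and 2 lower (SLC15A1 and SLC7A7), against 59.2% of all rows, 34.6% higher and 24.6% lower. The ribosomal RN18S1 row took 23.6% of the muscle reads and 4.81% or less of the others. With library totals the median of all 22200 rows with a read in any library, without the read minimum, rose to 0.98, 1.10 and 0.91 in the 3 comparisons. The share of called rows on the higher side then rose from 56.0% to 85.4%, from 56.6% to 80.6% and from 58.4% to 81.3%. With the RN18S1 row left out of the totals the medians were still 0.79, 0.82 and 0.54, and the higher shares 80.3%, 76.1% and 76.5%. With library totals, 7 transporters were past 2-fold higher at P10 than in muscle and 0 lower, on a scale where the median of all rows was itself at 0.91.

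Muscle is not known as an absorptive tissue, so its reads of these genes were set against intestinal markers counted in the same library. Of 27 epithelial, enterocyte and goblet cell markers, the muscle level in CPM was 0% to 2.37% (median 0.241%) of that in the highest other library. SLC6A19 (0.517%), SLC7A8 (0.748%), SLC1A1 (1.17%), SLC15A1 (1.52%) and SLC7A9 (2.06%) lay within this range. DPP4 (2.37%) was the 1 marker above all 5, with CDH1 next at 1.53%, and SLC7A9 lay between these. The excess of SLC6A19 and SLC7A9 in muscle over intestine rests on these reads. SLC6A20 (4.09%), SLC3A1 (9.18%), SLC36A1 (12.3%), SLC7A7 (18.1%) and SLC3A2 (37.4%) lay above all 27. For SLC6A20 this was not outside counting error. Its interval (2.82% to 5.74%) overlapped those of DPP4 (1.63% to 3.35%), SPDEF (0% to 3.34%) and ZG16 (0% to 3.76%). The source of the muscle reads was not tested.

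**Figure D4:**
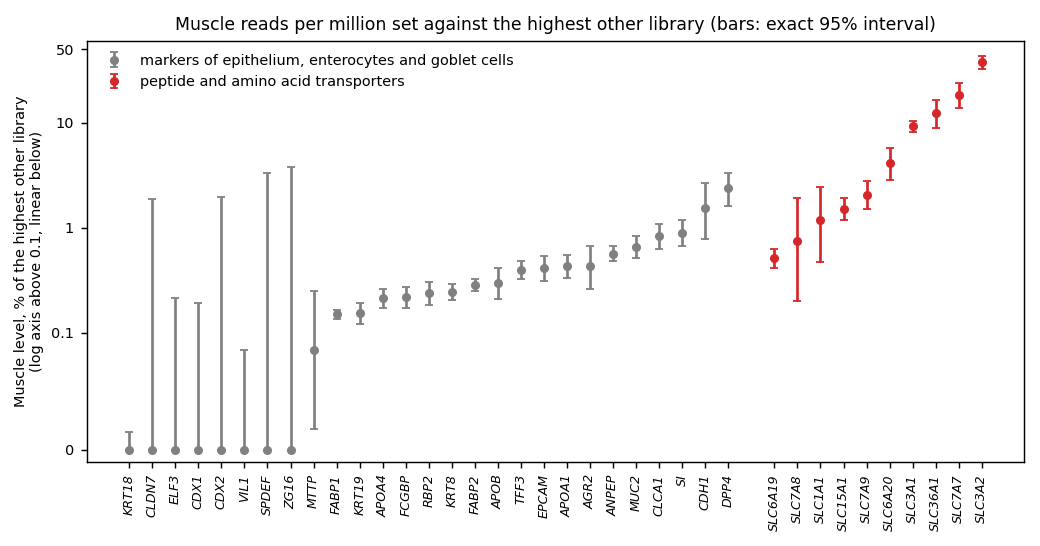
Muscle level of 27 intestinal markers (grey) and the 10 transporters (red), in percent of the CPM in the highest other library, with exact 95% intervals, on an axis that is logarithmic above 0.1 and linear below. The 5 transporters on the left of the red group lie within the range of the markers, up to 2.37%, and the other 5 lie above it, up to 37.4% for SLC3A2. The interval of SLC6A20 overlaps that of DPP4.

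The rest of the amino acid and peptide transporters were also compared between the passages. Of 37 symbols listed, 34 had a read and 21 passed the read minimum between P10 and P5 organoids. Of these 4 were at least 2-fold higher at P10, 3 at least 2-fold lower and 14 within 2-fold, beside 12.6% and 12.2% of all rows, and their range was from -3.26 to 2.39. The 4 higher genes were SLC7A5 (2.39), SLC7A11 (1.70), the light chain of the cystine-glutamate exchanger, SLC1A5 (1.49), which carries glutamine, and SLC16A10 (1.37), which carries aromatic amino acids. The 3 lower genes were SLC38A3 (-3.26), another glutamine carrier, SLC43A2 (-1.58), a carrier of large neutral amino acids, and SLC6A6 (-1.20), the taurine carrier. The 10 genes described above and this list were drawn up with earlier results of these data known, and neither is independent of them.

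Between P5 organoids and intestine, 24 of the 37 passed the read minimum, of which 2 were at least 2-fold higher and 3 lower, beside 20.2% of all rows in each direction. The higher ones were SLC6A6, with 1368 reads at P5 and 115 in intestine (log2 difference 4.13, 3.76 to 4.48), and SLC6A14, a carrier of neutral and cationic amino acids, with 1963 against 569 (1.99, 1.85 to 2.14). The lower ones were SLC43A1 (-4.47), a carrier of large neutral amino acids, SLC7A2 (-3.83), a carrier of cationic amino acids, and SLC38A11 (-2.18). SLC43A1 rested on 4 reads at P5 and SLC7A2 on 9. The basolateral SLC16A10 did not pass 2-fold, with 175 reads in intestine and 79 at P5.

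Among partners of absorption, proteins that hold or drive these carriers, 3 of 7 were at least 2-fold lower at P10 than at P5 and 0 higher, beside 12.2% and 12.6% of all rows. ANPEP, a brush border peptidase that frees amino acids, went from 28104 reads to 243 (-7.82), PDZK1, a scaffold of the brush border, from 2470 to 233 (-3.85), and SLC9A3, the sodium-proton exchanger that sustains the proton gradient for SLC15A1, from 1274 to 339 (-2.37). Against intestine, P5 organoids had ANPEP higher by 8.86 (8.52 to 9.20) and SLC9A3 lower by -1.93 (-2.02 to -1.84), beside 0.70 for SLC15A1. Centring on the epithelial markers, which put SLC15A1 at -1.96, would take the same 2.66 off ANPEP and SLC9A3. KCNE3, a potassium channel subunit, was higher in P5 organoids than in intestine by 2.90, and 0.95 higher at P10 than at P5.

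Genes of the amino acid response, which cells raise through the factor ATF4 when amino acids are short and which include regulators and enzymes of serine and asparagine synthesis, were compared next. Of 11 past the read minimum, 7 were at least 2-fold higher at P5 than in intestine and 8 at P10, with 0 lower in either, beside 20.2% and 25.5% of all rows called higher. PHGDH, the entry enzyme of serine synthesis, had 161 reads in intestine, 1229 at P5 and 4546 at P10 (log2 differences from intestine 3.33 and 4.85). VLDLR differed by 2.86 and 3.51, DDIT4 by 2.85 and 2.11, and PSAT1, a later enzyme of serine synthesis, by 1.96 and 3.29. ATF4 itself did not pass 2-fold, at -0.44 and 0.02, nor did DDIT3, at -0.33 and -0.37. Between the passages 2 of 11 were past 2-fold, PHGDH (1.52) and PSAT1 (1.33), both higher at P10. Of all rows, 12.6% were called higher at P10 and 12.2% lower. DDIT4 (-0.74) and TRIB3 (-0.70) had the lowest differences of the list. The epithelial markers had medians of 2.66 and 2.58 in these comparisons, and with 2.66 taken off no gene of the list would be past 2-fold higher at P5. With 2.58 taken off at P10, PHGDH (4.85) would stay past 2-fold higher.

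**Figure D5:**
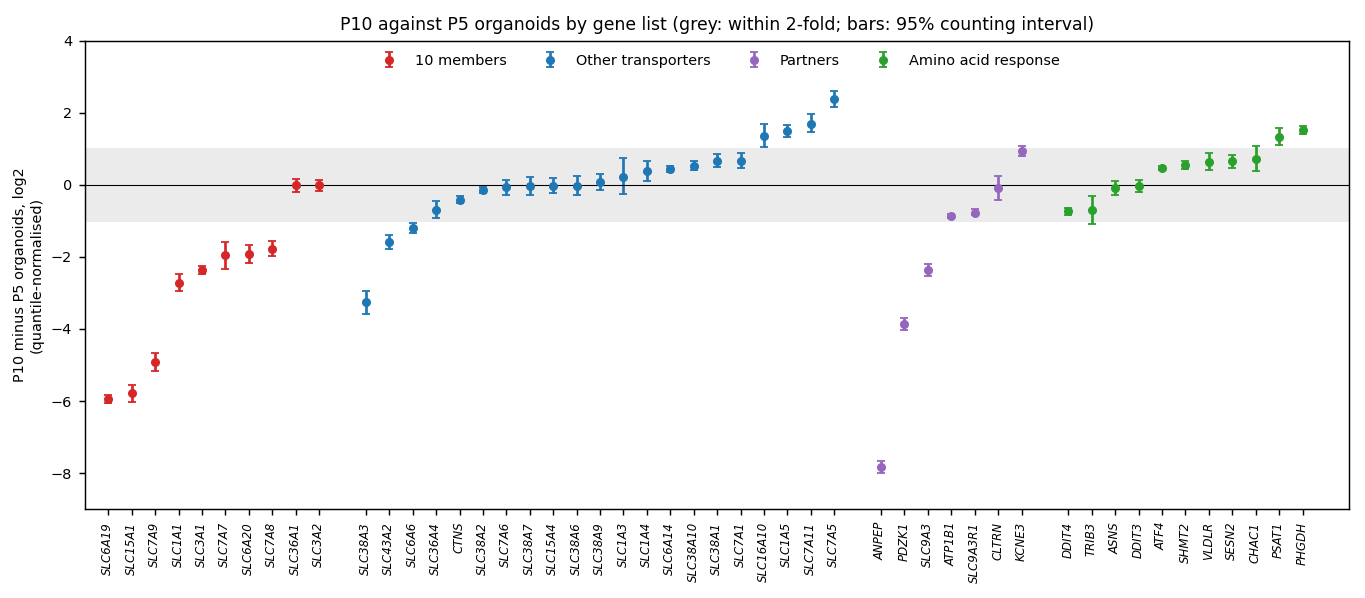
Differences of P10 minus P5 organoids on the log2 scale after quantile normalisation, for the genes of 4 lists that passed the read minimum of 50, with 95% counting intervals and a grey band within 2-fold. The 10 transporters described here (red) lie at or below 0, down to -5.95, and the other transporters lie on both sides, from -3.26 to 2.39.

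The genes whose pattern over the 4 libraries was most like that of a transporter were taken by the distance between log2 values centred on each gene, over 15051 rows with at least 50 reads in any library. With 4 libraries such likeness is loose. For SLC15A1 they were AOC1, the diamine oxidase of the gut (distance 0.75), LOC782884 (0.86) and LOC101904579 (0.89). AOC1 stood at 43.7 CPM at P5, 0.959 CPM at P10, 28.7 CPM in intestine and 1.24 CPM in muscle, again with intestine and P5 high. For SLC6A19 they were SLC13A1, a sulphate carrier (1.36), SLC10A2, the bile acid carrier of the distal small intestine (1.68), and TMIGD1, an adhesion protein of the brush border (1.97). TMIGD1 had 39 reads in intestine, 38 in muscle, 14255 at P5 and 649 at P10, so it too was high at P5 and low in intestine. SLC13A1 had 1 read and SLC10A2 0 reads in intestine, beside 3019 and 4605 at P5. For SLC1A1 they were PERP, a membrane protein of desmosomes (0.39), LRRC19 (0.55) and ROS1, a receptor tyrosine kinase (0.56). For SLC3A2 they were PDZD11 (0.07), FBXW5 (0.07) and MAML1 (0.08).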

How the data were processed

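The study prepared QuantSeq 3′ mRNA libraries from 500 ng of total RNA and read them on a NextSeq sequencer. The authors used Bowtie2 for alignment and deposited whole-number read counts per gene, taken from unique and multiple alignments with Bedtools. The deposited counts are not normalised. Tool versions, genome build and annotation are not given in the sources used here, so no coordinates are printed, and reads of paralogous carriers may be shared between them. All 10 symbols matched the RefSeq table of assembly ARS-UCD2.0.

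The 22200 of 29792 rows that were not at 0 in all libraries were quantile-normalised over the 4 libraries, with ties at their mean rank, as the paper names quantile normalisation and edgeR. On this log2 scale 1 read is worth 0.32 for intestine, 0.81 for P5 organoids and 2.09 for both muscle and P10 organoids, which bears on SLC6A19 and SLC7A9 in intestine and on SLC7A8 and SLC1A1 in muscle. Intervals of differences combine exact Poisson limits of each count, and those of read ratios are exact conditional binomial limits. The 1 library per group allowed no test.

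The members, gene lists and rules were chosen with earlier results of these data known. Named genes are all members, CLTRN, up to 3 highest and 3 lowest differences per list (P5 organoids against intestine, P10 against P5, 50 reads or more in the higher library), and the 3 nearest rows to SLC15A1, SLC6A19, SLC1A1 and SLC3A2. Genes outside this rule (SLC16A10, SLC7A6, SLC7A5 ratios, overlapping genes) were chosen after their values were seen. Of the listed genes, 3 were left out and are not reported here. Alternatives were library totals, TMM, upper-quartile scaling, totals without RN18S1, pseudocounts of 0.1 and 5, a floor of 10 reads (in any library, or in all), the sum of rows that share a symbol, a read minimum of 10, and, after seeing the data, centring on 10 epithelial markers. The normalisation was checked against limma's and run on simulated data. The simulated libraries shared a profile, with 200 of 22200 rows raised 4-fold at P5. They therefore do not test the normalisation where as many rows differ as here. Software was R 4.3.3 with edgeR 4.0.16 and limma 3.58.1, and Python 3.11.15 with scipy 1.17.1, pandas 2.3.3 and numpy 2.4.6.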

Additional observations from a re-analysis of the deposited data

Results flagged for a closer look

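SLC15A1 and SLC1A1 were above intestine at P5 and below it at P10, and this opposite direction is why they are listed, with both differences outside counting error on quantile-normalised values and on CPM. The gap of P10 and P5 organoids was -5.78 for SLC15A1 and -2.71 for SLC1A1 on the log2 scale. Set against the epithelial markers, SLC15A1 was below intestine at both passages, at -1.96 and -7.65, and so was SLC1A1, at -0.44 and -3.07. The difference between the passages was not tested, since each passage has 1 library.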

How the results depend on the processing

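With library totals, 1 transporter was at least 2-fold lower in P5 organoids than in intestine, and 7 were higher and 0 lower in P10 organoids than in muscle, where SLC15A1 reversed to 0.20. Of all rows, 2898 of 14060 were lower in the first comparison, and 8255 higher and 1897 lower of 13447 in the second. With totals without RN18S1 the transporter counts were 1, 6 and 1, beside 2878, 7205 and 2218 rows. With a floor of 10 reads in all libraries SLC7A9, SLC7A8 and SLC1A1 were not among the rows, so 7 genes were counted. Against intestine, 2 were higher at P5, beside 1633 of 11069 rows, and 1 at P10, beside 2201 of 11147. Against muscle, 5 were higher at P5, beside 2683 of 10801 rows, and 1 at P10, beside 2936 of 10943. Between the passages 5 were lower at P10, beside 1191 of 10896 rows. A read minimum of 10 gave 2 transporters lower in intestine than in muscle, beside 4741 of 17559 rows. Relative to the epithelial markers, 2 were higher and 5 lower in P5 organoids than in intestine and 8 lower in P10 organoids. Of all rows, 12552 of 14060 were lower at P5 and 12080 of 14365 at P10. The differences from intestine of SLC3A1 (-0.61) and SLC1A1 (-0.44) at P5 and of SLC7A8 (-1.32) at P10, all past 2-fold before, reversed. So did those within 2-fold of SLC15A1 (-1.96), SLC3A2 (-2.11) and SLC36A1 (-2.55) at P5 and of SLC3A2 (-2.04) and SLC36A1 (-2.48) at P10. The shift taken off explains these by construction, and the cause of the other changes was not tested. TMM and upper-quartile scaling, pseudocounts of 0.1 and 5 and rows summed by symbol left every count within 1.5-fold. The lowest and highest differences over all settings but the last were -5.95 and -5.29 for SLC6A19 and -5.92 and -5.71 for SLC15A1 between P10 and P5. Counts of 4 to 16 reads limit SLC7A8 and SLC1A1 in muscle and SLC7A9 and SLC6A19 in intestine. No paired analysis was possible because each group has 1 library.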
